A study of Mus musculus with 25 samples.

Results

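The machinery that writes, copies and removes DNA methylation is described through 10 genes: the DNA methyltransferase genes Dnmt1, Dnmt3a and Dnmt3b, their partner Dnmt3l, the dioxygenase genes Tet1, Tet2 and Tet3, and Uhrf1, Dppa3 and Zfp57. The rule is a list of gene symbols and uses no measured value, though the list was chosen with earlier results of these data known. All 10 were found, each as 1 of the 24708 gene loci in every table. On mm9, the build of the files, the loci span chr9:20711650-20764332 (Dnmt1), chr17:56442760-56462909 (Uhrf1), chr12:3806980-3914443 (Dnmt3a), chr2:153475185-153513466 (Dnmt3b), chr10:77505032-77526367 (Dnmt3l), chr10:62267318-62342762 (Tet1), chr3:133126641-133207354 (Tet2), chr6:83312368-83391672 (Tet3), chr6:122576442-122580289 (Dppa3) and chr17:37138108-37147674 (Zfp57). RNA was measured in 11 libraries of mouse embryos of the BDF1 strain, as FPKM (fragments per kilobase of transcript, scaled to library size), a level per length. The 2-cell embryos, at embryonic day 1.5, were labelled WT, IVF and sIVF, with 2 libraries each. The blastocysts, at embryonic day 4.0, were labelled Control, with 2 libraries, and Fzr1-OE, with 3. IVF is in vitro fertilization; the labels do not spell out sIVF, and they do not state how Fzr1 was overexpressed, in which cells, or how many embryos entered a library. Nothing in the labels ties the replicates to separate litters or cultures; the p-values therefore reflect the spread among these libraries alone, which may be technical.

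Cytosine methylation at CpG sites is copied onto new DNA strands by Dnmt1, which the RING-finger protein Uhrf1 brings to hemimethylated sites. Dnmt3a and Dnmt3b write new methylation, helped by Dnmt3l, a relative that lacks catalytic activity. Tet enzymes oxidise methylated cytosine and so start its removal, while Dppa3, a maternal protein, shields parts of the zygotic genome from Tet3, and the zinc-finger protein Zfp57 holds methylation at imprinted regions. In the mouse, methylation inherited from the gametes is largely lost between fertilization and the blastocyst and is rebuilt around implantation.

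The promoter sequences of 5 members are shown because the RNA of 4 of them (Tet2, Tet3, Dnmt3b and Uhrf1) separated all 2-cell libraries from all blastocyst libraries, and because the deposited value of Dnmt1 adds up 3 groups of start sites. Several groups are not particular to Dnmt1: Dnmt3a has 3, Dnmt3l 4, Zfp57 4 and Uhrf1 2. They come from RefSeq on build GRCm38.p6, in which 9 of the 10 members were matched (Dppa3 was not), at 18 starts. Each runs 5′ to 3′ from 250 bases before to 50 bases after an annotated start, and capitals mark CG dinucleotides. The windows lie at chr3:133544341-133544640 (minus strand), chr6:83441629-83441928 (minus strand), chr2:153649199-153649498 (plus strand), chr17:56304063-56304362 (plus strand), chr9:20959839-20960138 (minus strand) and chr9:20952574-20952873 (minus strand), in the order printed; for Uhrf1 the second of 2 starts and for Dnmt1 the first and the third of 3 starts are given, counted in the direction of transcription.
Tet2: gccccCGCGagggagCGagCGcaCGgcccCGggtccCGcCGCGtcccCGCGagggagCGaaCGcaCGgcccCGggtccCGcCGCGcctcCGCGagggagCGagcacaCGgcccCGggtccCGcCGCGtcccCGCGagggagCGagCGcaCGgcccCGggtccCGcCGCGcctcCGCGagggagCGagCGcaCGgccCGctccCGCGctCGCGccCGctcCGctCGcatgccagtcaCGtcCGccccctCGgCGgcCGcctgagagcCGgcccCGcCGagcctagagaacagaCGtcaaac
Tet3: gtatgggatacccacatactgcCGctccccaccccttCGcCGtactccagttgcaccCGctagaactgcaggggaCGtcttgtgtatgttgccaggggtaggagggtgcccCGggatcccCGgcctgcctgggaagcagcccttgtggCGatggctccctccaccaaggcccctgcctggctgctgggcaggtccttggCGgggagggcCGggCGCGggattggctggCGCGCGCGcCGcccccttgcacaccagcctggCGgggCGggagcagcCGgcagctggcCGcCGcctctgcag
Dnmt3b: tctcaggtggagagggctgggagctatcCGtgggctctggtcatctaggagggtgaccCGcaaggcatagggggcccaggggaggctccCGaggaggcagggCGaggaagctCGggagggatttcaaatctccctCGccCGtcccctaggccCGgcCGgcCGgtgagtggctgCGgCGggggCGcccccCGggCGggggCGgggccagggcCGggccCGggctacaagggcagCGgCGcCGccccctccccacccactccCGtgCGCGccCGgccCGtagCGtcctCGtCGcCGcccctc
Uhrf1, start 2: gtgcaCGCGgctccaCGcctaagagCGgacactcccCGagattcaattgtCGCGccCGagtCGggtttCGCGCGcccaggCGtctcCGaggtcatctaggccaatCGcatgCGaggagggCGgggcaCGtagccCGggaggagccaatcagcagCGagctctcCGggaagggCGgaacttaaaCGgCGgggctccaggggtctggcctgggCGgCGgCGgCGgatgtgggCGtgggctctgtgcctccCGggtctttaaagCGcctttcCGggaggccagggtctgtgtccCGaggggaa
Dnmt1, start 1: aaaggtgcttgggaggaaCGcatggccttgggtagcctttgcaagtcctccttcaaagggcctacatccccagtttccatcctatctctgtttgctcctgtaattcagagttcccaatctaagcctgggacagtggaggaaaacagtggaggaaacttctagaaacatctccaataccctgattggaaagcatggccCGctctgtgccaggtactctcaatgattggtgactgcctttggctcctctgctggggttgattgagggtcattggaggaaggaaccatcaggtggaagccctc
Dnmt1, start 3: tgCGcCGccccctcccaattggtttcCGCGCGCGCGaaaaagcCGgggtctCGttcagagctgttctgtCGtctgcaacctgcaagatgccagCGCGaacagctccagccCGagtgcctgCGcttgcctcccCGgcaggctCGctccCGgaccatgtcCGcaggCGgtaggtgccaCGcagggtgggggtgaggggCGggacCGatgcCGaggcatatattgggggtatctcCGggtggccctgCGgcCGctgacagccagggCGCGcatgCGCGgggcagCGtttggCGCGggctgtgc

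The Tet2 window held 57 CG dinucleotides, more than 99.8% of the 32544 distinct promoter windows of this length, whose median was 7 with quartiles at 3 and 20. Tet3 had 22, Dnmt3b 30 and the second Uhrf1 start 33. The 3 Dnmt1 starts differed most among themselves, with 2 CG dinucleotides at the first, 12 at the second and 33 at the third. Across all 18 starts of the 9 members the number ran from 2 to 57. The letters TTTCGCGC and TTTGGCGC, forms of the site bound by E2F factors of the G1/S transition, were searched on both strands. Either occurred in 0.820% of all windows, and among the members in the third Dnmt1 window and the second Uhrf1 window only. In Dnmt1, TTTCGCGC lay on the minus strand of the window at -219 and TTTGGCGC on its plus strand at 34, counted from the start; in Uhrf1, TTTCGCGC lay on the plus strand at -185. These matches describe letters and are no evidence of binding.

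Some facts of the whole series bear on the values. Depth, read from the deposited confidence bounds, came to between 4742698 and 6377606 fragments in the 2-cell libraries and between 9324167 and 10483442 in the blastocyst libraries, with 10085 to 11860 and 13658 to 13947 loci above 0. A 12-gene list of oocyte and maternal RNA summed to between 292 and 487 FPKM in 2-cell embryos and at most 2.52 in blastocysts, and 15 trophectoderm markers to between 17.5 and 29.2 against 4070 to 6699, so the stages went with their labels. Cumulus and granulosa markers summed to 6.93 to 8.17 FPKM in IVF and to 1.26 to 5.35 in the other 2-cell libraries. Amh, Areg, Cyp19a1, Foxl2, Fshr, Has2, Inhba and Ptgs2 were listed at 0 in all 6. In IVF replicate 1, 11 of the 12 markers were at 0 and the sum was that of Amhr2 alone. Sperm markers summed to 1.42 to 5.35 in IVF, with Prm1 at 0, and to at most 1.18 in the other 2-cell libraries. In blastocysts they summed to more, from 9.40 to 13.5. Polr2a and Sdha, genes that every cell uses, were listed at 0 in sIVF replicate 1. Both were low in 2-cell embryos, Polr2a at a mean under 1 FPKM and Sdha at a mean of 3.07 in WT. A single 0 may thus be a failed estimate or a low level. Fzr1 itself, the activator of the anaphase-promoting complex, was at 12.7, 15.5 and 17.1 FPKM in the libraries labelled Fzr1-OE and at 16.5 in each Control library; this RNA thus does not show the labelled overexpression, and a construct lacking the counted sequence would not be seen. In 2-cell embryos Fzr1 was at 0.117 and 0.233 FPKM in WT, 0.239 and 2.00 in sIVF and 7.69 and 10.1 in IVF.

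**Figure D1:**
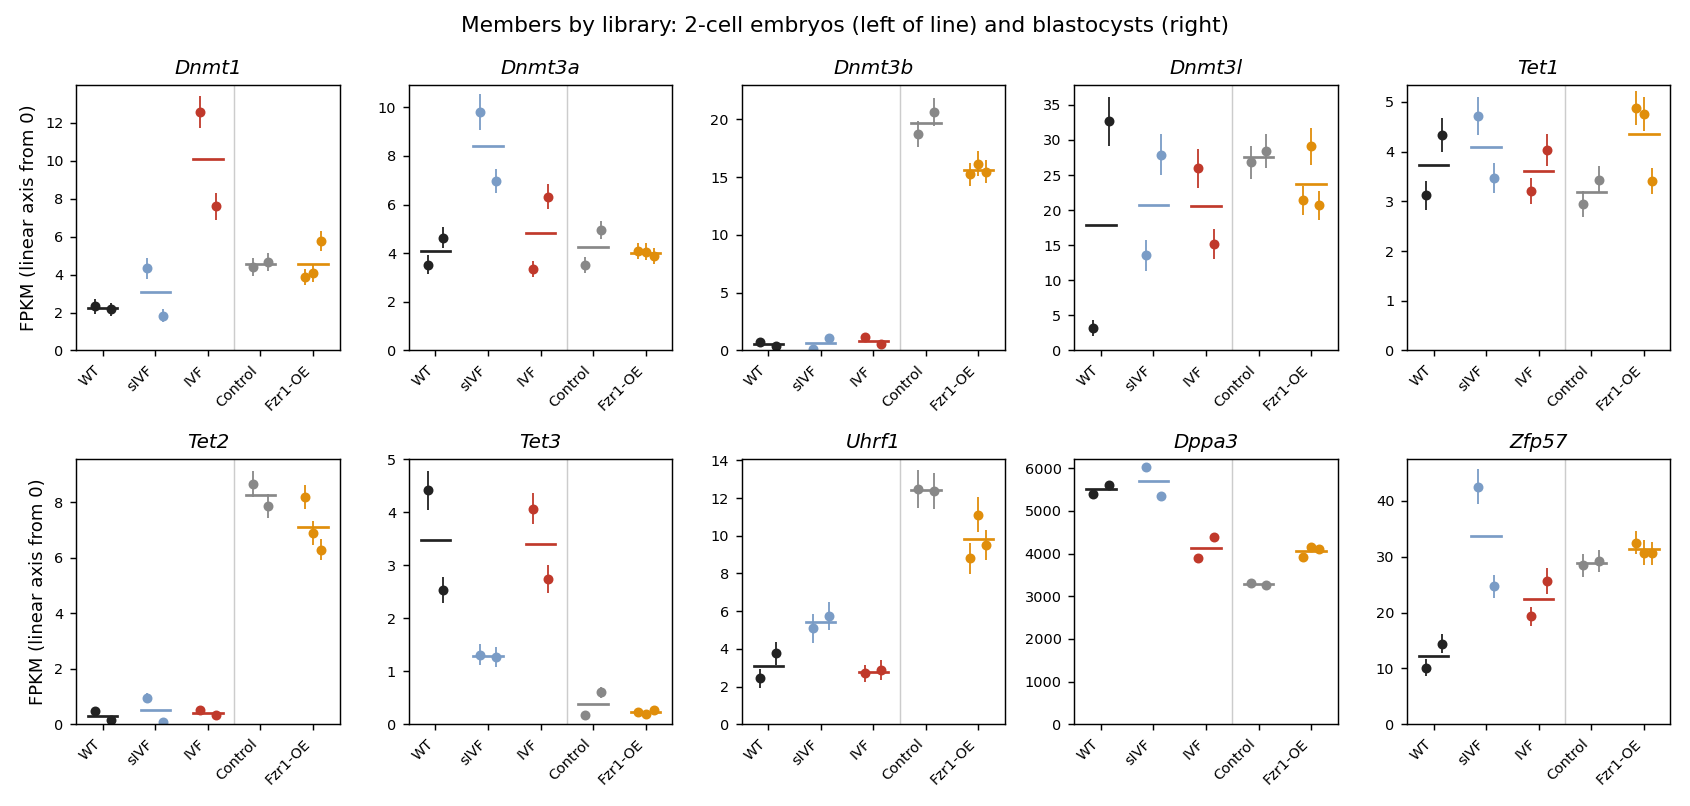
FPKM (linear axes from 0, one panel per gene, axes differ) of the 10 members in each of the 11 libraries; points are libraries, vertical lines the deposited confidence bounds, and horizontal bars group means. Dnmt3b and Tet2 sit near the bottom of their panels in 2-cell embryos and high in blastocysts, Tet3 the other way, and Dppa3 is at 3255 or more everywhere.

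Dppa3 had the highest level per length of the 10 in every group, with means of 5506 FPKM in WT, 5688 in sIVF, 4135 in IVF, 3278 in Control and 4062 in libraries labelled Fzr1-OE. It was the 1st or 2nd locus of all in 5 of the 2-cell libraries and the 3rd in IVF replicate 1. In WT 2-cell embryos Dnmt3l (mean 17.95 FPKM) and Zfp57 (12.3) followed, and their libraries overlapped. Dnmt3a, Tet1, Tet3 and Uhrf1 came next at means of 4.08, 3.73, 3.47 and 3.10, with no separation between neighbours, then Dnmt1 at 2.25. Dnmt3b at 0.585 and Tet2 at 0.309 were lowest and overlapped each other. In Control blastocysts the order was Dppa3, Zfp57 (28.9), Dnmt3l (27.6), Dnmt3b (19.7), Uhrf1 (12.4), Tet2 (8.26), Dnmt1 (4.54), Dnmt3a (4.24), Tet1 (3.19) and Tet3 (0.387). Of these neighbours Dnmt1 and Dnmt3a alone overlapped. Dnmt3b thus moved from the 9th to the 4th place, Tet2 from the 10th to the 6th and Tet3 from the 6th to the 10th.

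Between WT 2-cell embryos and Control blastocysts, Dnmt3b, Tet2, Uhrf1 and Zfp57 were higher in the blastocyst and Tet3 and Dppa3 lower. The test was limma on log2(FPKM + 1) across all 11 libraries in 5 groups, with p-values adjusted by Benjamini-Hochberg over the 9762 loci tested. Those 6 of 10 members stand beside 65.4% of all loci called (45.8% higher and 19.6% lower), so their number is near the background. Dnmt3b and Tet2, at means under 1 FPKM in WT, were tested only because their blastocyst levels carried them past the minimum mean. Tet3, at a mean of 0.387 in Control, was likewise tested only through its 2-cell levels. The calls of Dnmt3b, Tet2 and Tet3 thus follow in part from that filter. The median log2 fold change of all loci was 0.88, a shift that quantile normalization reduced to 0.11; the changes below are given with their distance from that median. Stage, age, depth and the unlike kinds of control embryo cannot be told apart in this comparison, and in bulk libraries fewer cells of a type and less RNA per cell cannot be told apart.

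Of the maintenance pair, Uhrf1 rose and Dnmt1 did not pass. Uhrf1 was at 2.44 and 3.76 FPKM in WT 2-cell embryos and 12.5 and 12.4 in Control blastocysts. All 5 blastocyst libraries, from 8.80 to 12.5, lay above all 6 2-cell libraries, from 2.44 to 5.75. The log2 fold change was 1.73 (SE 0.26, limma adjusted p = 3.91e-04), 0.85 above the median of all loci. Dnmt1 was at 2.33 and 2.16 FPKM in WT and 4.42 and 4.65 in Control. These pairs did not overlap, yet the 0.77 difference (SE 0.37, limma adjusted p = 0.0967) was 0.11 below the median of all loci, and IVF replicate 1 at 12.6 was above every blastocyst library. Dnmt1 passed with only the 4 compared libraries in the fit (adjusted p = 0.0421) or with either sIVF library left out (0.0495 and 0.0491). It also passed with all libraries kept and each library's trend with transcript length removed, at 1.07 (adjusted p = 0.0395), 0.78 above the median there, while under quantile normalization it was at 0.03 (0.961).

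Of the de novo genes, Dnmt3b rose, and Dnmt3a and Dnmt3l did not pass. Dnmt3b was at 0.754 and 0.416 FPKM in WT, on 29 and 17 fragments, and at 18.7 and 20.7 in Control, on 1079 and 1124. The 6 2-cell libraries reached at most 1.14 FPKM of Dnmt3b and the 5 blastocyst libraries were at least 15.2, with no overlap. The Control mean was 33.7 times the WT mean, with a log2 fold change of 3.71 (limma adjusted p = 1.89e-05, SE 0.33), 2.83 above the median; with the length trend removed it was 3.39, under the 3.97 of Tet2. Dnmt3a was at 3.53 and 4.64 FPKM in WT and 3.52 and 4.96 in Control, which overlap (log2 fold change 0.04, 0.84 below the median, limma adjusted p = 0.930). Dnmt3l was at 3.23 and 32.7 FPKM in WT and 26.8 and 28.4 in Control. WT replicate 1 was the low library: without it the log2 fold change was -0.23, without WT replicate 2 it was 2.76 (limma adjusted p = 0.00145), and with both it was 1.26 (0.195).

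Of the Tet genes, Tet2 rose, Tet3 fell and Tet1 did not pass. Tet2 was at 0.461 and 0.158 FPKM in WT, on about 53 and 21 implied fragments, and at 8.65 and 7.86 in Control. No 2-cell library exceeded 0.946 and no blastocyst library was under 6.28. The log2 fold change was 2.83 (SE 0.33, limma adjusted p = 9.07e-05), 1.95 above the median, and the ratio of means 26.7. Tet3, the form known from the oocyte and zygote, was at 4.42 and 2.53 FPKM in WT and 0.175 and 0.5996 in Control. The lowest 2-cell value, 1.27 in sIVF replicate 2, was above the highest blastocyst value. Its log2 fold change was -1.67 (SE 0.31, limma adjusted p = 0.00127), 2.56 below the median, and the Control mean was 0.111 times the WT mean. Tet1 overlapped, at 3.12 and 4.34 FPKM in WT and 2.94 and 3.44 in Control (log2 fold change -0.17, limma adjusted p = 0.640, 1.05 below the median).

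As a share of the summed FPKM of the 3 Tet genes, Tet2 took a median of 5.23% in the 6 2-cell libraries, from 1.29% to 13.6%, and 63.1% in the 5 blastocyst libraries, from 58.2% to 73.5%. Tet3 took 37.3%, from 18.8% to 55.2%, and then 1.74%, from 1.48% to 5.04%. Tet1 took 59.2% and 34.2%, and its ranges, 39.0% to 72.3% and 25.0% to 40.2%, overlapped. The share is a ratio within a library, so a single scaling factor per library does not alter it. Quantile normalization and removal of the length trend act on loci unevenly, and the shares were not computed under them. All 3 Tet loci were among the longest, with at least 98.3% of loci shorter by the length that FPKM and fragments imply. Within the sum of Dnmt1, Dnmt3a, Dnmt3b and Dnmt3l, Dnmt3b went from a median of 2.25% (0.540% to 7.66%) to 34.2% (30.3% to 35.2%), while Dnmt3l took the largest median share at both stages, 55.8% and 48.4%.

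**Figure D2:**
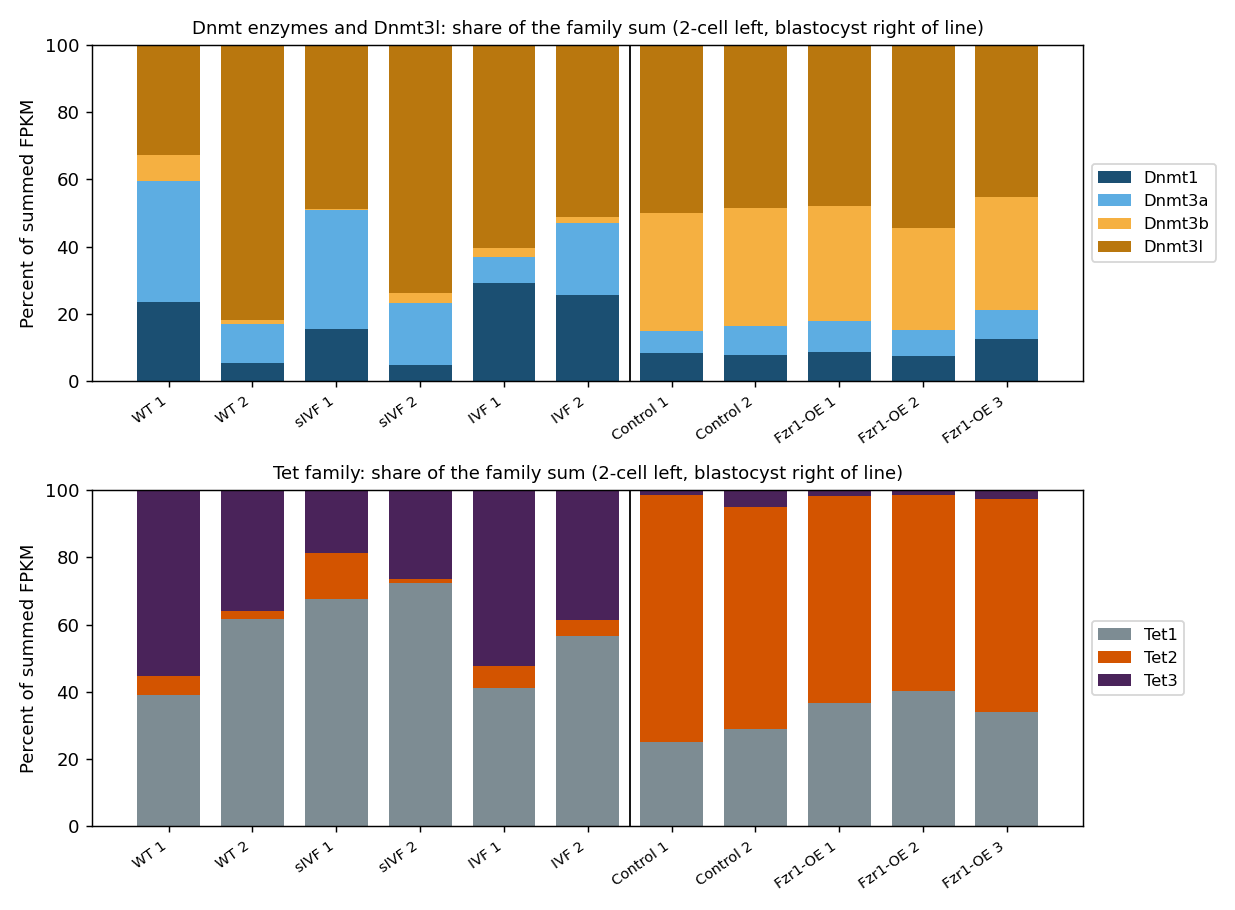
Share of the summed FPKM (percent, stacked bars, one bar per library) of each gene within the Dnmt genes with Dnmt3l (upper panel) and within the Tet genes (lower panel). Tet3 and Tet1 fill the Tet bars of 2-cell embryos, where Tet2 reaches at most 13.6%, and Tet2 takes at least 58.2% of every blastocyst bar.

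Of the protective members, Dppa3 fell and Zfp57 rose. Dppa3 was at 5400 and 5611 FPKM in WT and 3301 and 3255 in Control, with a log2 fold change of -0.75 (limma adjusted p = 2.07e-05, SE 0.07), 1.63 below the median of all loci; it was -1.53 under quantile normalization and -2.28 with the length trend removed, and passed in both. Over all libraries the stages overlapped, since IVF replicate 1, at 3891, lay within the blastocyst range, which reached 4153. Zfp57 was at 10.1 and 14.4 FPKM in WT and 28.5 and 29.2 in Control, a log2 fold change of 1.19 (limma adjusted p = 0.00604, SE 0.29) that was 0.31 above the median. Its sIVF libraries, at 42.6 and 24.7, spanned the blastocyst values.

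Over all libraries of each stage, 4 of the 10 members did not overlap (Dnmt3b, Tet2 and Uhrf1 higher and Tet3 lower in the blastocyst), beside 60% of all loci (43% higher and 17.1% lower). The changes also varied with transcript length: in 10 classes of loci by implied length, the median log2 fold change was 1.49 in the shortest class, 1.89 in the next and -0.42 in the longest. Dppa3, with 10.8% of loci shorter, stood below its length class, and Tet2 above it. With the length trend removed, Tet3 no longer passed (log2 fold change -0.15, limma adjusted p = 0.724), Tet1 turned to 1.32 (0.0039) and Zfp57 fell short at 0.07 (0.871); under quantile normalization Zfp57 was at 0.31 (0.394) and Tet1 at -0.92 (0.0339), so that 3 members were called higher and 3 lower in place of 4 and 2. S-phase genes moved with the stage as well: 12 of 13 were called higher, beside 45.8% of all loci. The 13 summed to 975 to 1015 FPKM in Control against 263 to 271 in WT, and their part in the rise of Uhrf1 was not tested.

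The 3 groups of 2-cell embryos were compared in a common limma fit of 6 libraries and 8246 loci. IVF and sIVF were each set against the same WT libraries, and the comparison of sIVF with IVF uses libraries of both, so the values below are not independent of each other. Dnmt3b and Tet2 were under the minimum mean of 1 FPKM and were not tested. None of the 8 members tested passed in any of the 3 comparisons by limma, beside 0.0121% of loci for IVF against WT and 0% of loci in the comparisons of sIVF with WT and with IVF. At an unadjusted p under 0.05 there were 2 members for IVF against WT (Dnmt1 and Dppa3), beside 12.4% of loci, 1 for sIVF against WT (Zfp57), beside 7.09%, and 2 for sIVF against IVF (Dnmt1 and Dppa3), beside 11.8%. Group ranges that did not overlap were found for 3, 4 and 5 members, beside 42.2%, 35.9% and 42.7% of loci.

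Dnmt1, which copies methylation onto new strands, was at 2.33 and 2.16 FPKM in WT, 4.34 and 1.83 in sIVF and 12.6 and 7.59 in IVF. Both IVF libraries were above all others, and the sIVF pair spanned WT. IVF had 4.48 times the WT mean, a log2 fold change of 1.73 (SE 0.60, 95% interval 0.35 to 3.12, limma adjusted p = 0.313), and sIVF against IVF gave -1.47 (SE 0.60, limma adjusted p = 0.394). Uhrf1, its partner, was at 2.71 and 2.88 FPKM in IVF, within the WT values of 2.44 and 3.76, with a log2 fold change of -0.09 (95% interval -1.40 to 1.21). In sIVF, at 5.09 and 5.75, it lay above both other groups (log2 fold change 0.66 against WT, limma adjusted p = 0.807).

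Dnmt3a was at 9.81 and 6.97 FPKM in sIVF, above WT at 3.53 and 4.64 and above IVF at 3.33 and 6.32, with a log2 fold change of 0.88 (limma adjusted p = 0.778, SE 0.55) against WT. Dnmt3l was at 13.6 and 27.9 in sIVF and 26.0 and 15.2 in IVF, inside the span of the WT libraries; against WT replicate 2 alone its log2 fold changes were -0.71 and -0.69, and against WT replicate 1 alone 2.28 and 2.30. Dnmt3b stayed low in all groups, at 0.151 and 1.08 in sIVF and 1.14 and 0.546 in IVF. The sIVF value of 0.151 rests on about 3 implied fragments. Among the Tet genes, Tet3 was at 1.31 and 1.27 FPKM in sIVF, below WT at 4.42 and 2.53 and IVF at 4.06 and 2.75. That difference of -0.93 (SE 0.63, 95% interval -2.38 to 0.51, limma adjusted p = 0.792) against WT did not pass. Tet1 was at 4.72 and 3.47 in sIVF and 3.20 and 4.03 in IVF, and Tet2 at 0.946 and 0.0621 and at 0.505 and 0.335, each pair overlapping WT.

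Dppa3 values were close within groups. At 3891 and 4379 FPKM in IVF it lay below WT (5400 and 5611) and sIVF (6020 and 5355), whose ranges overlapped. The log2 fold change was -0.41 for IVF against WT (SE 0.10, 95% interval -0.65 to -0.18, limma adjusted p = 0.157) and 0.46 for sIVF against IVF (SE 0.10, limma adjusted p = 0.145). For sIVF against WT it was 0.04 (95% interval -0.19 to 0.28). These sizes moved with the scaling: IVF against WT gave -0.23 under quantile normalization and under upper-quartile scaling, and sIVF against IVF gave 0.08 and 0.24. Zfp57 was at 19.3 and 25.7 in IVF and 42.6 and 24.7 in sIVF, all above WT at 10.1 and 14.4, with log2 fold changes of 0.83 (SE 0.41, limma adjusted p = 0.464) and 1.35 (SE 0.41, 95% interval 0.42 to 2.28, limma adjusted p = 0.519). Beside the IVF values stand the cumulus and sperm marker sums given above, higher than in the other 2-cell libraries. At most 2 genes of each of these lists reached 1 FPKM in an IVF library. The 10 genes that every cell uses, Actb and Ppia among them, summed to 1015 to 1121 FPKM in IVF against 1569 to 1688 in WT and sIVF. The part of these differences in the Dnmt1 and Dppa3 values was not tested.

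In blastocysts, the libraries labelled Fzr1-OE were compared with Control in a limma fit of 9439 loci. Dppa3 was the 1 member called, among 9 tested, beside 4.21% of loci, 2.29% being called higher. It was at 3925, 4153 and 4108 FPKM in the libraries labelled Fzr1-OE and 3301 and 3255 in Control. All 3 lay above both Control libraries, at 1.24 times their mean. The log2 fold change was 0.31 (95% interval 0.21 to 0.41, SE 0.04) with a limma adjusted p of 0.00512. The direction held in all 14 alternatives, between 0.29 and 0.36, but the call was lost without replicate 3 of the libraries labelled Fzr1-OE (limma adjusted p = 0.0521), without Control replicate 2 (0.0632), with all loci tested whatever their level (0.444), without the intensity trend (0.266) and with the replicate number as a block (0.194). RefSeq lists a pseudogene, Dppa3-ps, that has no row in the deposited tables, so reads shared with it could be counted under Dppa3.

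Beside the Dppa3 result, 15 trophectoderm markers summed to between 4070 and 4153 FPKM in the libraries labelled Fzr1-OE and between 6509 and 6699 in Control. Of the 15, 8 were called lower, beside 4.21% of all loci called in either direction. Epiblast markers summed to 499 to 574 and 500 to 519, with 0 of 12 called. The 15 genes of a 2-cell stage list in the tables summed to 122 to 141 against 101 to 112. Eif1a made up most of these sums, at means of 95.3 and 100, and was not called. Of the 7 genes of this list tested, 5 were called higher and 0 lower, beside 2.29% of all loci called higher. Their median log2 fold change was 1.78, beside 0.005 for all loci. Tdpoz3, Tdpoz4 and Zfp352 were at 0 in Control and were tested only through the libraries labelled Fzr1-OE. The part of these differences in the Dppa3 level was not tested.

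Group ranges did not overlap for 4 of the 9 members tested, beside 37.4% of loci. Dnmt3b, with Dppa3, was under an unadjusted p of 0.05, as were 19.7% of loci. Dnmt3b was at 15.2, 16.2 and 15.5 FPKM in the libraries labelled Fzr1-OE and 18.7 and 20.7 in Control, and Uhrf1 at 8.80, 11.1 and 9.51 against 12.5 and 12.4. Both were lower in each of the 3 libraries and neither passed (log2 fold changes -0.32 with SE 0.14, limma adjusted p = 0.241, and -0.32 with SE 0.17, limma adjusted p = 0.342). Zfp57 was at 32.6, 30.8 and 30.6 against 28.5 and 29.2 (0.11, limma adjusted p = 0.643). The remaining members overlapped. Dnmt1 was at 3.89, 4.06 and 5.77 against 4.42 and 4.65 FPKM, Dnmt3a at 4.10, 4.07 and 3.87 against 3.52 and 4.96, and Dnmt3l at 21.4, 29.1 and 20.7 against 26.8 and 28.4. The 95% intervals of their log2 fold changes ran from -0.52 to 0.51, -0.55 to 0.45 and -0.59 to 0.14. Tet1 was at 4.87, 4.76 and 3.40 (interval -0.18 to 0.87) and Tet2 at 8.19, 6.89 and 6.28 (-0.62 to 0.23). Tet3, at 0.232, 0.192 and 0.277, was under the filter, as in Control.

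**Figure D3:**
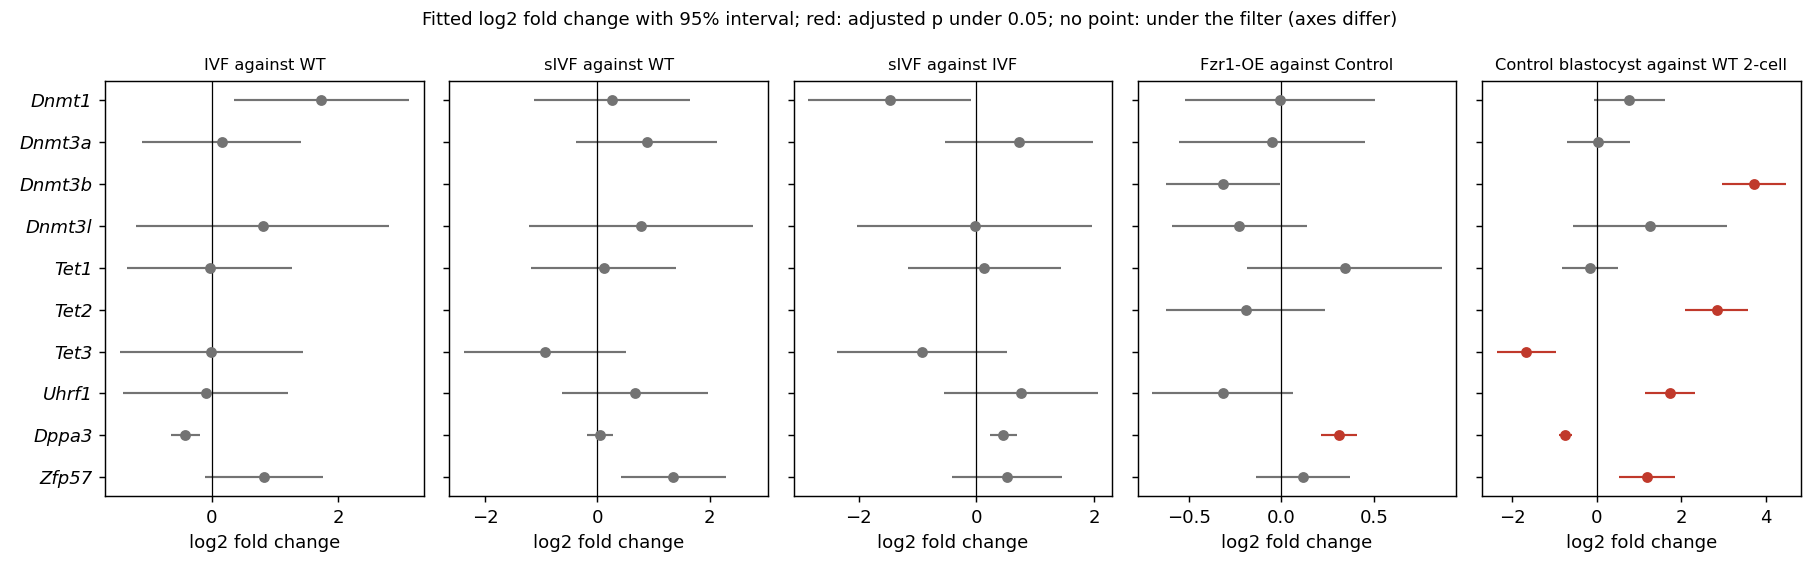
Fitted log2 fold change on the log2(FPKM + 1) scale (horizontal axis, differing between panels) of each member in the 5 comparisons, with 95% intervals; red points passed a limma adjusted p of 0.05 and a missing point was under the filter. Red points are seen for 6 members in the stage comparison and for Dppa3 in the comparison of libraries labelled Fzr1-OE, and for none in the 3 comparisons of 2-cell embryos.

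Other genes of the pathway were taken as 6 lists. Counts in the stage comparison stand beside 45.8% of all loci called higher and 19.6% lower, and genes near 0 in one stage were tested only through the other. Of the lists, 7 of 18 tested partners of maintenance and de novo methylation rose and 3 fell, with a median log2 fold change of 0.15 beside 0.88 for all loci; under quantile normalization 3 rose and 7 fell, with medians of -0.72 and 0.11, and with the length trend removed 4 and 2. The shares are near those of all loci and are no result about the list. Zfp42, a pluripotency-linked zinc-finger gene, went from 1.86 and 10.8 FPKM in WT to 126 and 130 in Control, 4.48 on the log2 scale (limma adjusted p = 1.61e-04, SE 0.58). Naa10, an N-terminal acetyltransferase, rose from 16.0 and 0 to 65.7 and 57.5. Ehmt1 and Setd2, both histone methyltransferases, fell by 1.53 and 1.43 on the log2 scale. With the length trend removed, Naa10 (limma adjusted p = 0.0604) and Setd2 (0.494) no longer passed.

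Of 18 tested genes of demethylation and base excision repair, 10 rose and 1 fell, with a median of 1.44; with quantile normalization the numbers were 9 and 5, and with the length trend removed 7 and 6. The share that rose is near the 45.8% of all loci. Tdg, the glycosylase that removes the oxidised bases the Tet enzymes make, was listed at 0 in all 6 2-cell libraries and lay between 19.7 and 30.3 FPKM in the 5 blastocyst libraries. RefSeq names 2 copies of Tdg that the tables do not list, so its reads could have been shared or lost. Gadd45g was listed at 0 in both WT libraries and was at 36.4 and 25.9 in Control. Gadd45a was the 1 that fell, from 28.2 and 44.1 to 0 and 0.0577. Among 7 tested readers of CpG and of methylated cytosine, 4 rose and 0 fell (median 1.67), beside 45.8% and 19.6% of all loci; 2 rose under quantile normalization (median 0.84) and 1 with the length trend removed (0.62). They were led by Mbd3, a subunit of the NuRD complex, at 4.51 and 8.46 FPKM in WT and 37.2 and 41.9 in Control, and by Cxxc1 (log2 fold change 2.27, limma adjusted p = 0.0201), which no longer passed under quantile normalization (0.0976) or with the length trend removed (0.138).

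The imprint protection list split, with 3 of 13 rising and 6 falling (median -0.31), beside 45.8% and 19.6% of all loci and their median of 0.88; 2 and 6 did so under quantile normalization, and 3 and 3 with the length trend removed. Trim28, the corepressor that Zfp57 recruits, rose from 16.9 and 14.9 FPKM to 65.4 and 62.7, and Cbx1, a heterochromatin protein, from 6.02 and 6.93 to 93.5 and 79.7. Cbx3, its paralog, fell from 2575 and 3272 to 30.1 and 127, with 6 RefSeq copies that the tables do not list, and Nlrp5, a maternal-effect gene, from a mean of 5.10 to a listed 0. Of 13 genes of cofactor supply, 7 rose and 3 fell (median 1.03), shares near the 45.8% and 19.6% of all loci. Idh1, which makes the 2-oxoglutarate that Tet enzymes use, went from 0.387 and 0.0332 FPKM to 151 and 148, and Idh3a from a mean of 4.76 to 173, while Mat2b, a subunit of the enzyme making the methyl donor, fell from a mean of 169 to 35.2. Of 22 tested germline genes whose promoters are known to be silenced by methylation, 6 rose and 9 fell (median -0.81), beside 45.8% and 19.6% of all loci. Under quantile normalization 4 and 12 did so, and with the length trend removed 3 and 12 (median -2.02). Without such scaling Cyct and Magea5 rose most, and Brdt (mean 75.0 to 0.948 FPKM) and Tex11 (25.2 to 0.149) fell most. Magea5 did not pass under quantile normalization (limma adjusted p = 0.0922). Of the oocyte and maternal RNA list, all 10 loci tested fell as well, with a median log2 fold change of -4.425. The part of methylation or of the loss of maternal RNA in the fall of germline genes was not tested.

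**Figure D4:**
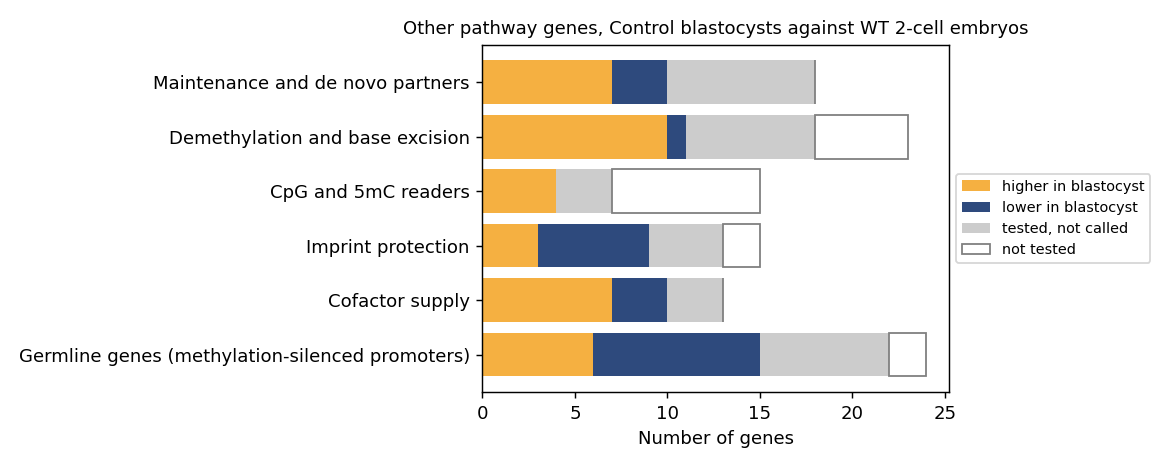
Number of genes (horizontal axis) of each of 6 pathway lists that were called higher or lower in Control blastocysts than in WT 2-cell embryos, tested and not called, or not tested. The demethylation and base excision list has 10 higher and 1 lower and the imprint protection list 3 higher and 6 lower. Of all loci tested, 45.8% were called higher and 19.6% lower. With the length trend removed the numbers of the 2 lists were 7 and 6, and 3 and 3.

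Of the same lists, 0 genes passed limma in the 3 comparisons of 2-cell embryos; at an unadjusted p under 0.05 the lists held at most 3 genes each. The smallest p-values in IVF against WT were those of Hormad1, a meiotic chromosome-axis gene (30.5 and 40.3 FPKM against 92.0 and 77.7, limma adjusted p = 0.149), Cbx3 (1229 and 1968 against 2575 and 3272, 0.151) and Mbd3 (30.3 and 20.8 against 4.51 and 8.46, 0.160), none of which passed. In sIVF against WT they were Neil3, Cbx1 and Brdt, with limma adjusted p from 0.634 to 0.691. In sIVF against IVF they were Cbx3, at 2988 and 2989 FPKM in sIVF (0.150), Hormad1 (0.184) and Trim28 (0.251).

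In the libraries labelled Fzr1-OE, 2 of 16 tested germline genes rose and 0 fell, beside 2.29% of loci called higher, with a median of 0.17 beside 0.005 for all loci, and 0 genes of the other 5 lists passed. At an unadjusted p under 0.05 those 5 lists held at most 2 genes each and the germline list 6, of which Cyct (log2 fold change -0.68) and Asz1 (-0.61) were lower in the libraries labelled Fzr1-OE. Hormad1 was at 13.1, 11.6 and 14.1 FPKM against 7.53 and 4.96 in Control, 0.97 higher on the log2 scale (limma adjusted p = 0.0306, SE 0.20). Magea5, a cancer-testis gene of the X chromosome, was at 39.6, 27.6 and 31.3 against 19.9 and 19.3, 0.70 higher on the log2 scale (limma adjusted p = 0.0423, SE 0.16). In neither gene did the groups overlap. Each passed in 7 of 14 alternatives: Hormad1 lost its call without any 1 of the 3 libraries labelled Fzr1-OE (limma adjusted p = 0.0641, 0.0675 and 0.104) or without Control replicate 2 (0.218), and Magea5 without replicate 1 or 3 of those libraries (0.0723 and 0.0968) or either Control library (0.158 and 0.233). The 3 settings that ended the Dppa3 call with all libraries kept ended both of these as well (0.131 to 0.382).

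The loci whose log2(FPKM + 1) followed a member most closely over the 11 libraries were sought among 5814 loci whose mean reached 5 FPKM, for the 6 members above that level. For Dnmt3b they were Havcr1 and Actn4 (Pearson r 0.996 each), for Uhrf1 H2afy (0.985) and Asns (0.984), for Dppa3 Rad21 (0.963) and Tdrd12 (0.956), and for Zfp57 Asf1a (0.951) and Rab30 (0.946). Dnmt3l was closest to Sde2 (0.925) and Smim14 (0.923) and Dnmt3a to Srfbp1 (0.877) and Snhg6 (0.854). Between members, Dnmt3b and Tet2 had r = 0.97, and Tet3 had r = -0.96 with Uhrf1, -0.87 with Tet2 and -0.85 with Dnmt3b. The 11 points share their stage and its depth, and the coefficients are given with no test.

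For subcutaneous fat of 4-month-old mice, the authors' deposited tables hold ontology terms for the comparison of Fzr1-OE with Control, with 449 gene symbols over 1605 terms from RNA and 119 over 632 terms from reduced-representation bisulfite sequencing. None of the 10 members was among them, and no term name contained DNA methylation. Of 108 genes on the pathway lists, Gnmt and Sycp1 were named in the one from RNA, and 0 in the one from methylation. A gene absent from such a table is not thereby unchanged, since the tables list genes by term.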

How the data were processed

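RNA libraries of 11 embryo samples were used; the H3K9me3 and input libraries of blastocysts were not analysed here. Per the labels' protocols, cDNA made from cytoplasmic lysates was amplified, fragmented and sequenced as paired ends, with no molecular identifiers named. The authors deposited FPKM per locus with confidence bounds, per the file headers. The submitters' processing notes list, with no role given, Trim Galore 0.6.4, HISAT2 2.1.0, Cuffdiff and Cufflinks 2.2.1 among others, and mm9 as the genome build. For fat, the authors deposited gene ontology terms with a p-value each, used here only for the symbols they list. No mm9 annotation was used, so exons are not stated.

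Groups came from the sample titles. Members and gene lists were chosen with earlier results of these data known. The 10 members are named in every comparison; of each pathway list, up to 2 called genes per direction with the largest change are named, and where none passed in a comparison, the 3 with the smallest p over all lists; 1 gene that this rule names is not reported here. Likeness was computed for members whose mean reached 5 FPKM.

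Tests used limma 3.58.1 in R 4.3.3 on log2(FPKM + 1) (lmFit, then eBayes with trend = TRUE). Loci entered a fit when their mean over its libraries reached 1 FPKM, and p-values were adjusted by Benjamini-Hochberg with a threshold of 0.05. Fold changes on this scale understate the change of low genes. Two-sided tests were used, and the procedure was tested on simulated data. The number of fragments behind a value was read from its deposited bounds, on the reading that they span 2 Poisson standard deviations each way; they cover counting error only. Of values under 40 implied fragments, 46.2% to 50.8% per library were within 0.05 of a whole number, so counts were not recovered or tested. Implied transcript length is relative and served for ordering loci. Figures were drawn with matplotlib 3.10.9 under Python 3.11.15 (pandas 2.3.3, numpy 2.4.6). Alternatives varied the pseudocount, filter, scaling, variance model, replicate block, libraries in the fit and, added after seeing the data, a trend with transcript length.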

Additional observations from a re-analysis of the deposited data

How the results depend on the processing

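The comparisons of members comprised 43 tested results, of which 7 passed the threshold, and 704 values under alternatives. Of the 138 alternative values of those 7 results, all 138 kept their direction and 130 kept the call. Of the 566 of the other 36 results, 38 had the opposite sign and 7 passed. In each of the 3 comparisons of 2-cell embryos, 0 members passed limma under every alternative run, replicate block and left-out libraries included; upper-quartile scaling moved the median of all loci for IVF against WT from 0.09 to 0.24.

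For the libraries labelled Fzr1-OE against Control, the number of members called was 1, and 0 with no filter on low values, with no intensity trend and with the replicate block (limma adjusted p of Dppa3 0.444, 0.266 and 0.194), where 30, 41 and 47 loci in all passed in place of 397. Leaving out 1 library at a time gave 0 to 1 members and 87 to 350 loci.

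Between stages, 6 members were called, and 4 to 7 under the alternatives; the 4 came with the filter of 5 FPKM, which left 6 members to test. Tet1 reversed when the length trend was removed, from -0.17 to 1.32. The Tet loci are at the long end of that trend, where few loci set it; the cause of the changes in Tet1, Tet3 and Zfp57 was not tested. Dnmt3l depended on the WT libraries, and Dnmt1 on the libraries sharing the fit and on the length trend. Named pathway genes and lists were also refitted, a choice made after seeing the data.

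Same-numbered libraries of different groups showed correlations of deviations from -0.04 to 0.07. In a group of 2 libraries the deviations mirror each other, so this check cannot decide whether the numbers pair the samples. The numbers are those of the sample titles, and the files of 5 libraries carry other numbers. This check and the block values may thus not rest on true pairs. With the replicate block the members called were 0, 0 and 0 in 2-cell embryos, 0 in blastocysts and 6 between stages. Depth limits Dnmt3b and Tet2 in 2-cell embryos most: their values rest on about 3 to 66 and 8 to 106 implied fragments.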

Other observations

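Of the marker lists in 2-cell embryos, S-phase genes and genes of the 2-cell stage had their lowest sums in IVF, with no gene called; so did the 10 genes that every cell uses (1015 to 1121 FPKM against 1569 to 1688). The 13 S-phase genes summed to 263 to 271 FPKM in WT, 219 to 233 in sIVF and 191 to 213 in IVF, with 0 genes called by limma in any of the 3 comparisons. The 15 genes of the 2-cell stage list in the tables summed to 198 to 234 FPKM in WT, 213 to 216 in sIVF and 150 to 173 in IVF, again with 0 called.

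In Control blastocysts against WT 2-cell embryos, 6 of 11 tested epiblast genes were called higher and 2 lower, and 5 of 6 tested primitive endoderm genes higher and 1 lower, beside 45.8% of loci called higher and 19.6% lower. In the libraries labelled Fzr1-OE, 1 of 7 tested primitive endoderm genes and 1 of 13 S-phase genes were called higher, beside 2.29% of all loci. S-phase genes summed to 1072 to 1145 FPKM against 975 to 1015 in Control. The S-phase gene called was Rrm2, at a mean of 467 against 346, which carried most of that difference. The median log2 fold change of the 13 S-phase genes was 0.03, beside 0.005 for all loci.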
